A study of Mus musculus with 23 samples.

Results

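Amplified total RNA was compared with unamplified total RNA of primary mouse embryonic fibroblasts on 15 of the 23 arrays of the series. The arrays were chosen by their titles: 7 of amplified total RNA (3 starved, 4 treated) and 8 of total RNA (4 starved, 4 treated). The difference, amplified minus total RNA, was averaged over both serum conditions with equal weight. All 12422 probe sets other than controls entered it, a probe set being a group of short oligonucleotides that reads 1 transcript or a family of transcripts.

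The study followed the early RNA response of fibroblasts to serum, and the other 8 arrays held newly transcribed RNA. Cells of all groups came from embryos at day e14.5 and carried the genotype given as C57/BLACK6, ATF1 -/+, so no group was wild type at ATF1. Cultures spent 48 hours in 1% dialysed serum and a further 2 hours with 200 µM 4-thiouridine, a uridine analogue that enters new RNA, in 1% serum (starved) or 10% serum (treated). All groups thus carried the analogue, and the labels give tritiated cytidine in the medium as well. The labelling protocol given for all samples, total RNA included, names a linear amplification, so the titles alone separate the kinds of RNA. The titles call the arrays biological replicates, and p-values measure only the spread between these arrays.

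In linear amplification, RNA is copied into cDNA from a primer at the poly(A) tail, and a T7 promoter built into that primer lets T7 RNA polymerase transcribe many copies. A further round lets small samples be measured, and products are known to shorten toward the 3' end of the transcript with each round. An array of this type reads each gene through a few fixed probe positions, so a measured difference belongs to a probe set and not to the whole gene.

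Fibroblast markers were bright in both kinds of RNA. The median of 17 markers on the log2(signal + 16) scale, where a signal of 0 gives 4, lay between 9.48 and 11.2 in amplified and between 10.5 and 11.5 in total RNA. The medians of the endothelial, epithelial, skeletal muscle, neural and erythroid lists lay between 4.31 and 5.42 over all 15 arrays. Macrophage markers were also present, with medians between 7.14 and 10.4 in amplified and between 7.05 and 9.58 in total RNA. Of 15 macrophage markers, 1 was called (6.67%, beside 19.2% of all genes), the integrin chain Itgam, lower by 1.15 ± 0.31. Without amplified starved 2 the count was 5 lower, and without array set 2, described next, it was 2 higher and 6 lower. With all arrays none of the 3 complement chains of the list was called, although C1qa, for example, had a median signal of 349 in amplified and 866 in total RNA. The summed signal of the macrophage list ran from 3503 to 13542 in amplified and from 4724 to 11573 in total RNA, and its part in the differences was not tested. In such bulk samples fewer cells of a type and less RNA per cell cannot be told apart.

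Amplified arrays were not alike. By whole profile they fell into 3 array sets that crossed the serum groups, and the titles do not name these sets. Set 1 held starved 1 and treated 1, set 2 held starved 2, treated 2 and treated 3, and set 3 held starved 3 and treated 4. Correlations over all probe sets were 0.957 to 0.984 within a set and 0.845 to 0.919 between sets, against 0.951 to 0.985 among total RNA arrays. Correlations with total RNA had a median of 0.855 for set 1, 0.935 for set 2 and 0.892 for set 3. Median raw signals ran from 7.3 to 75.2 in amplified and from 20 to 54.2 in total RNA.

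The spread between arrays of one serum condition was larger in amplified RNA. The median SD of a probe set was 0.454 in amplified (5 degrees of freedom) and 0.267 in total RNA (6 degrees of freedom), and it was larger in amplified RNA for 78.2% of probe sets. In the brightest of 5 equal bins of level the medians were 0.613 and 0.266. With the 3 arrays of set 2 alone, the amplified median SD was 0.188, below that of total RNA, but only the pair of treated arrays gives it a spread.

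Amplified and total RNA differed at 2338 of 12422 probe sets (18.8%) at an adjusted p below 0.05 (limma, Benjamini-Hochberg adjustment). Of these, 1221 were higher in amplified RNA (9.83%) and 1117 lower (8.99%), and 975 differed at least 2-fold, 412 higher and 563 lower. Among genes without overlap between the kinds, differences reached -3.87 (Psap) and 2.53 (Dnajc3). All 7 amplified arrays lay above all 8 total RNA arrays at 389 probe sets (3.13%) and below them at 362 (2.91%). The median difference of all probe sets was 0.03, with a median SE of 0.20.

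These counts moved with the array sets and the scaling. With array sets as a random block, which gave an estimated correlation within sets of 0.571, 705 probe sets were higher and 669 lower, and 1366 of these 1374 were among the 2338. Leaving out set 2 gave 2339 higher and 2128 lower, leaving out set 1 gave 1075 and 881, and leaving out set 3 gave 964 and 963. Higher probe sets made up 52.2% of calls after quantile normalization, 67.9% with arrays scaled to one median (1584 higher, 750 lower) and 4.92% with values as deposited (13 higher, 251 lower). The median difference of all probe sets was 0.09 and -0.10 under those other scalings, so directions below are relative to a bulk of probe sets that was set near 0.

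**Figure D1:**
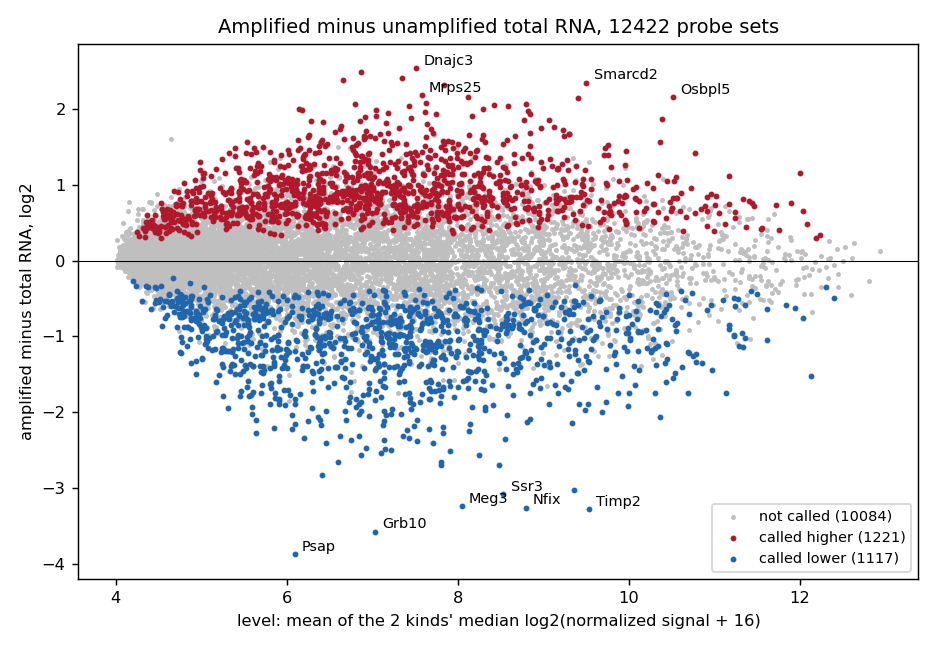
Difference between amplified and total RNA (vertical axis, log2) against level (horizontal axis, mean of the median log2(normalized signal + 16) of both kinds) for each of 12422 probe sets. Red points were called higher (1221), blue points lower (1117) and grey points not called; the labelled lower genes reach -3.87, while the highest labelled gene stands at 2.53.

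Called probe sets were rare among the dimmest. Levels were taken from the 8 newly transcribed arrays, which were not in the contrast, in 5 bins of equal size. For nearly all genes named below, however, these arrays departed from total RNA in the same direction as the amplified arrays. A probe set low in amplified RNA can thus fall into a dimmer bin, so the balance of higher and lower calls by bin is a description. In the dimmest bin 0.72% of probe sets were higher and 1.89% lower, and in the brightest 17.9% were higher and 10.8% lower. In the middle bin lower calls were the more frequent, with 13.0% against 9.66% higher.

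The 12 genes with the largest rises in amplified RNA, among called genes with no overlap between the kinds, are given by their known roles. Dnajc3, an endoplasmic reticulum co-chaperone, had signals of 89.9, 458 and 815 (lowest, median and highest) in amplified and 22.99, 54.7 and 64.4 in total RNA. It was higher by 2.53 ± 0.39 (adjusted p = 0.000708, limma, Benjamini-Hochberg). Its amplified arrays all stood above the total RNA arrays, although amplified values spanned a wide range.

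Aldh2, the mitochondrial aldehyde dehydrogenase, had signals of 313, 538 and 668 in amplified and 40.4, 79.2 and 154 in total RNA, a difference of 2.31 ± 0.28. Mrps25, of the small mitochondrial ribosomal subunit, had 258, 382 and 612 against 57.1, 76.2 and 101, a difference of 2.17 ± 0.17. Lonp1, the protease of the mitochondrial matrix, had 450, 537 and 1115 against 80.4, 124 and 236, a difference of 2.15 ± 0.28. Every amplified array stood above every total RNA array for these genes. Fdx1, a mitochondrial ferredoxin, had 704, 1517 and 2334 against 236, 283 and 354, a difference of 2.14 ± 0.24. Its lowest amplified arrays were those of set 2.

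Several other genes of this group act in the nucleus. Smarcd2, a subunit of the SWI/SNF chromatin remodelling complex, had signals of 901, 1648 and 2253 in amplified and 236, 301 and 412 in total RNA. It was higher by 2.34 ± 0.14, the smallest SE of the 12, with an adjusted p of 1.22e-06 in limma. Zmynd8, a chromatin reader, had 54.2, 252 and 430.0 against 14.7, 21.8 and 29.1, a difference of 2.38 ± 0.39. The amplified ranges of these genes began above the end of the total RNA ranges. Nup54, a nuclear pore protein, had 95.5, 373 and 653 against 6.82, 52.3 and 70.4, a difference of 2.41 ± 0.42. Nsun2, an RNA methyltransferase, had 418, 702 and 833 against 99.8, 149 and 196, a difference of 2.05 ± 0.20.

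The remaining genes are signalling or lipid transfer genes. Osbpl5, an oxysterol-binding protein relative, had signals of 979, 3287 and 5451 in amplified and 507, 631 and 778 in total RNA, a difference of 2.15 ± 0.30. Gnb5, a G protein beta subunit, had 81.5, 271 and 1054 against 28.5, 31.7 and 50.7, a difference of 2.49 ± 0.46. Rap1a, a small GTPase, had 81.1, 229 and 321 against 18.3, 34.5 and 39.5, a difference of 2.06 ± 0.26. The 3 arrays of set 2 held the lowest amplified values, nearest to total RNA, for 7 of the 12 genes, Gnb5, Osbpl5 and Zmynd8 among them.

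The 12 genes with the largest falls are ordered likewise, beginning with lysosome, secretion and endosomes. Psap encodes prosaposin, the precursor of lysosomal activators of sphingolipid breakdown. Probe set 97560_at of Psap had signals of 1.06, 1.11, 1.77, 2.53, 2.89, 3.41 and 20.2 on the amplified arrays and 138, 157, 192, 226, 244, 249, 653 and 771 on the total RNA arrays. It was lower by 3.87 ± 0.36 (adjusted p = 2.04e-05, limma), with amplified values near the bottom of the scale. Treated 2 was the only amplified array above 3.41.

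Ssr3, of the translocon-associated complex, had signals of 96.9, 104 and 200.0 in amplified and 714, 1131 and 2019 in total RNA, and fell by 3.08 on the log2 scale (SE 0.26). Rab7, the small GTPase of late endosomes, had 73.2, 110 and 210 against 545, 715 and 1270, a difference of -2.57 ± 0.25. Sec23a, of the COPII coat of vesicles that leave the endoplasmic reticulum, had 21.2, 40.0 and 88.9 against 212, 321 and 495, a difference of -2.53 ± 0.23. The highest amplified array stayed below the lowest total RNA array for each of these genes. Sgpl1, the sphingosine-1-phosphate lyase of the endoplasmic reticulum, had 41.4, 68.5 and 125 against 288, 574 and 909, a difference of -2.69 ± 0.28.

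Signalling genes came next. Grb10, an imprinted adaptor that binds the insulin receptor, had signals of 1.44, 24.5 and 48.6 in amplified and 175, 407 and 960 in total RNA, a difference of -3.57 ± 0.41. Shc1, an adaptor of receptor tyrosine kinases, had 1.63, 10.2 and 69.0 against 100.0, 261 and 356, a difference of -2.82 ± 0.38. Both amplified ranges reached down to signals of about 1. Plxnb2, a semaphorin receptor, had 44.2, 64.4 and 108 against 228, 604 and 878, a difference of -2.65 ± 0.30. Pdlim7, a PDZ and LIM domain protein of the actin cytoskeleton, had 3.64, 26.2 and 117 against 235, 309 and 363, a difference of -2.56 ± 0.35.

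Timp2, an inhibitor of metalloproteinases, had signals of 67.1, 184 and 434 in amplified and 660, 2748 and 3232 in total RNA, a difference of -3.27 ± 0.51. Total RNA arrays starved 1 and treated 1 stood far below the other 6, and no amplified array reached them. Nfix, a transcription factor of the nuclear factor I family, had 64.8, 113 and 408 against 1134, 1505 and 2368, a difference of -3.25 ± 0.33. Meg3, an imprinted long non-coding RNA, had 45.1, 65.5 and 199 against 518, 843 and 1621, a difference of -3.24 ± 0.34. For both genes the brightest amplified array was well under the dimmest total RNA array.

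**Figure D2:**
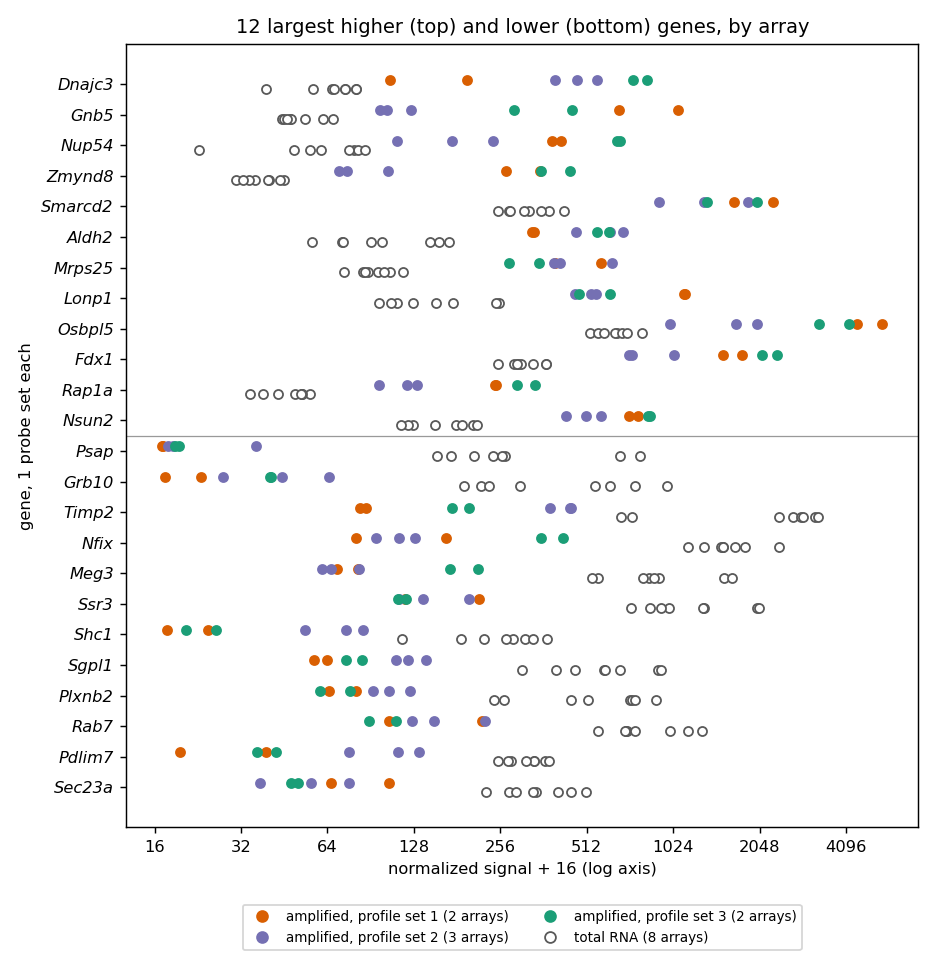
Normalized signal + 16 (horizontal, log axis) on every array for the 12 genes with the largest rises (above the grey line) and the 12 with the largest falls (below it). Filled points are amplified arrays coloured by array set and open points are total RNA arrays; the kinds do not overlap for any of the 24 genes, and set 2 (purple) lies nearest to total RNA for 7 of the 12 higher and 5 of the 12 lower genes.

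All 24 genes were chosen as called and not overlapping, so their calls and separation are a description. They kept direction and call under all alternatives run, except 7 of the 12 higher genes, which were no longer called with values as deposited (Dnajc3, Nup54, Zmynd8, Aldh2, Fdx1, Rap1a and Nsun2, adjusted p from 0.062 to 0.16, limma). Signals at least 100 on all total RNA arrays and under 50 on all amplified arrays were found at 4 probe sets, and the reverse at 0. The 3 of them with 1 gene name were Psap, Grb10 and Tnfaip1, an adaptor of a ubiquitin ligase, which had signals of 8.94, 17.0 and 43.0 in amplified and 107, 147 and 226 in total RNA.

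The newly transcribed arrays were compared with the same total RNA arrays only by value. Their median signal was 2.61 for the Psap probe set, 6.33 for Grb10, 149.5 for Timp2 and 121 for Meg3. It was 2673 for Smarcd2, 3678 for Osbpl5 and 277 for Dnajc3. For Aldh2 it was 120, between the amplified median of 538 and the total RNA median of 79.2. The newly transcribed median lay below every total RNA array for 12 of the 12 lower genes. For 11 of the 12 higher genes it lay above every total RNA array. The genes were chosen on these same total RNA arrays, so the counts are a description.

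Other probe sets of the named genes were read beside these. Over all probe sets, 9.83% were called higher and 8.99% lower. The 8 higher genes with further probe sets had 15 of them, of which 1 was called higher and 2 lower, and 5 of the 15 had medians under 50 in both kinds of RNA. Smarcd2 was higher by 2.34 at one probe set, while another, 161965_r_at, was lower by 0.68 on the log2 scale (-0.68 ± 0.19, adjusted p = 0.0255, limma). Nsun2 was higher by 2.05 at one and differed by -0.67 ± 0.21 at another. The 12 lower genes had 18 further probe sets, of which 8 were called lower and 0 higher. Among these, Grb10 differed by -2.34 ± 0.26, Nfix by -1.82 ± 0.34, Meg3 by -1.59 ± 0.37 and Psap by -1.35 ± 0.13 at 97114_at.

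Pairs of probe sets of one gene were then tested directly, on the per-array difference between the brighter and the dimmer one. There were 2073 genes with several probe sets, which gave 3311 pairs. The gap within a pair differed between amplified and total RNA for 1024 pairs (30.9%) in 743 genes (limma, Benjamini-Hochberg over the pairs), and 616 of them differed at least 2-fold. Of all pairs, 333 (10.1%) were called with no overlap between the kinds. Pairs of one gene share probe sets, so they are not independent. Among the 880 pairs whose probe sets both averaged a signal of at least 50, 475 were called.

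Some genes moved up at one probe set and down at another. Both probe sets were called for 190 pairs, and in 56 of these, from 50 genes, the directions were opposite. Pdia6, a protein disulfide isomerase of the endoplasmic reticulum, had the largest gap of this kind. Its probe set 94208_at had signals of 94.8, 160 and 290 in amplified and 513, 813 and 1263 in total RNA, a fall of -2.04 ± 0.27. Its probe set 94207_at had 217, 299 and 433 in amplified and 78.8, 117 and 162 in total RNA, a rise of 1.35 ± 0.18. Neither probe set overlapped between the kinds, and the gap within the gene differed by -3.39 ± 0.24 (adjusted p = 7.39e-07, limma).

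Cop1, a ubiquitin ligase, rose by 1.21 ± 0.25 at one probe set and differed by -1.86 ± 0.40 at another. Faf1, a FAS-associated factor, differed by -1.83 ± 0.14 and 1.22 ± 0.19, and Myo6, an unconventional myosin, by 2.07 ± 0.42 and -1.0 ± 0.18. Snx2, a sorting nexin, differed by -2.35 ± 0.14 at its brighter probe set, and by 0.75 ± 0.39 at the dimmer one, which was not called. Outside the 10 largest pairs, and picked after their values were seen, Plk1, the mitotic kinase, differed by -0.68 ± 0.21 and 1.84 ± 0.29. The growth hormone receptor gene Ghr, picked likewise, rose by 1.64 ± 0.23 at one probe set and differed by -1.19 ± 0.29 at the other.

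Large gaps also came from genes with a probe set that did not pass the test. For Psap, probe set 161476_at had signals of 107, 146 and 170.4 in amplified and 95.7, 127 and 156 in total RNA, a difference of 0.10 ± 0.13, beside -3.87 ± 0.36 at 97560_at. The gap between them, 161476_at minus 97560_at, was 1.80, 3.11 and 3.37 in amplified and -2.50, -0.88 and 0.16 in total RNA, a difference of 3.97 ± 0.37. For Aldh2 the partner of the higher probe set differed by -0.79 ± 0.49 and was not called. The dimmer partners in Grb10 and Timp2 had median signals of 4.5 and 7.56 in total RNA, so those gaps mostly repeat the brighter probe set.

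**Figure D3:**
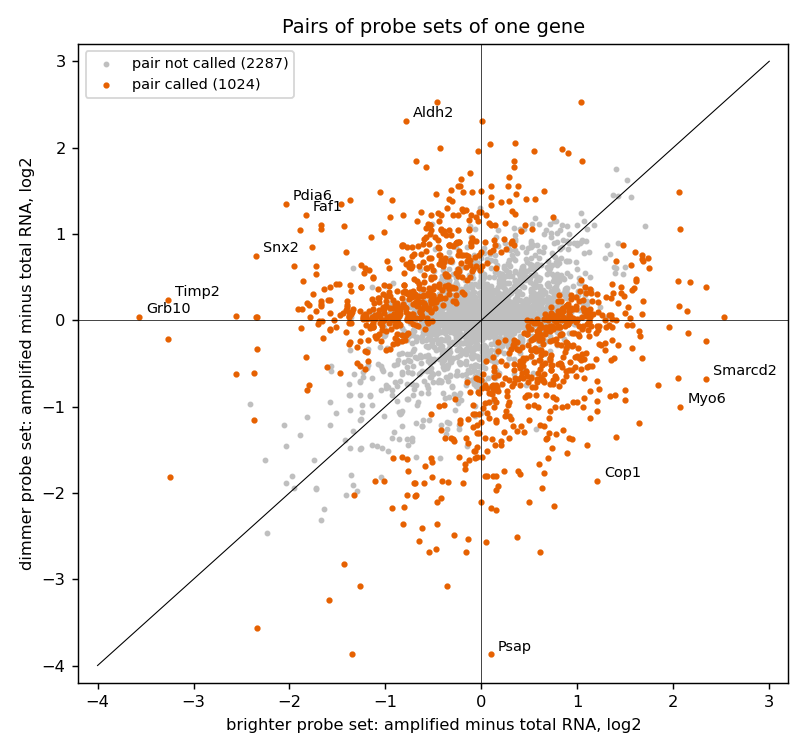
Difference between amplified and total RNA (log2) of the dimmer probe set (vertical) against that of the brighter probe set (horizontal) for 3311 pairs within 2073 genes. Orange pairs were called (1024) and the diagonal marks equal differences; Pdia6, Faf1, Cop1, Myo6 and Smarcd2 lie where one probe set is higher and the other lower.

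The suffix of a probe set name tells how its probes were picked, and calls differed by suffix. In the naming of the array's maker, _f_at marks probes shared by a family of similar sequences and _at probes meant for 1 transcript. Of 1075 _f_at probe sets 25.1% were higher and 4.19% lower, against 8.50% and 9.40% of 9614 _at probe sets. In the brightest bin of level, with the limit of these bins given above, the higher shares were 44.7% of 206 and 15.2% of 2070. Over the 2 brightest bins, the _f_at median stood 0.09 to 0.51 above the _at median on amplified arrays and below it on total RNA arrays (-0.34 to -0.06), with no overlap.

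The same direction was seen within genes. Of 921 pairs of an _f_at and another probe set, 318 were called (34.5%), near the 29.8% of 2303 pairs without an _f_at. The _f_at probe set was the relatively higher one in amplified RNA in 272 of the 318 and the lower in 46. Among the 56 opposite pairs, 23 held 1 _f_at probe set, which was the higher one in 20. Smarcd2, Aldh2 and Mrps25 were named through an _f_at probe set. Lower calls were frequent among _g_at (22.9% of 205) and _s_at probe sets (18.3% of 371), which share probes between transcripts.

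Control transcripts with probe sets at known ends showed the gap along the transcript. Gapdh, the glycolytic dehydrogenase, had a 3' signal minus 5' signal (log2) of 0.70, 1.30 and 2.19 (lowest, median, highest) on amplified and -0.32, -0.22 and -0.06 on total RNA arrays. The kinds did not overlap, and the mean difference within serum conditions was 1.74 (adjusted p = 0.0012, exact permutation test within serum condition over 9 transcripts, two-sided). The unadjusted p of 0.00041 was the smallest that 2450 permutations can give. For all 9 transcripts single arrays were permuted as if independent, although amplified arrays formed 3 sets, so these p-values may be too small. The Gapdh gaps were 1.30 and 2.18 in set 1, 0.70 to 1.23 in set 2, and 2.09 and 2.19 in set 3. The 5' probe set of Gapdh had signals of 455, 944 and 2816 in amplified and 3542, 4484 and 4719 in total RNA, while the 3' probe set had 2114, 2698 and 5137 against 3366, 3750 and 4415. The 5' signals were thus apart and the 3' signals overlapped.

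Actb, cytoplasmic beta-actin, showed the same order. Its gap was 1.40, 2.50 and 2.58 on amplified and 0.15, 0.36 and 0.67 on total RNA arrays, a difference of 1.92 (adjusted p = 0.0012, exact permutation test). The 5' signal was 365, 741 and 1454 in amplified and 3443, 5156 and 6012 in total RNA. The middle probe set, 492, 1272 and 1594 against 4327, 5332 and 6316, was also apart. The 3' signal of Actb was lower too, 1919, 3868 and 5137 against 5102, 6092.5 and 7127, a difference of -0.846 with overlapping ranges. The 2 gene probe sets of Actb outside the controls differed by 0.76 ± 0.78 and 0.73 ± 0.79 and were not called.

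Pyruvate carboxylase, a mitochondrial enzyme, had a gap of 0.74, 2.02 and 2.41 on amplified and -0.26, 0.43 and 1.56 on total RNA arrays. The difference of 1.17 (adjusted p = 0.0092, exact permutation test) came with overlapping ranges, and it was 0.82 without set 2 (adjusted p = 0.07). Its 5' signal was only 5.34 to 30.1 in amplified and 22.9 to 84.4 in total RNA. The transferrin receptor control was dim, with 3' signals of 9.59 to 36.7 over both kinds, and its gap differed by -0.11 (adjusted p = 0.5, exact permutation test), or by -0.375 with only the amplified arrays of set 2 (adjusted p = 0.04). The 18S rRNA control had the widest gaps, from -3.45 to 4.36 on total RNA arrays, and differed by -1.34 (adjusted p = 0.32, exact permutation test).

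Bacterial control transcripts are spiked in and do not come from the cells. The gap of BioDn was 0.69, 1.45 and 1.74 on amplified and 1.86, 2.43 and 2.83 on total RNA arrays. It was lower on amplified arrays by 1.02 with no overlap (-1.02, adjusted p = 0.0012, exact permutation test). The 5' signal of BioDn was higher on amplified arrays by 1.31 and its 3' signal by 0.29, both with overlapping ranges. Whether its gap follows the signal level was not tested. The gaps of BioB, BioC and CreX differed by -0.04 (adjusted p = 0.86), 0.12 (adjusted p = 0.32) and -0.23 (adjusted p = 0.13) in the same exact permutation test. The CreX gap passed the test under other settings: it was -0.344 with arrays scaled to one median or values as deposited (adjusted p = 0.00092, exact permutation test), and -0.324 without amplified treated 4 (adjusted p = 0.0018, exact permutation test).

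**Figure D4:**
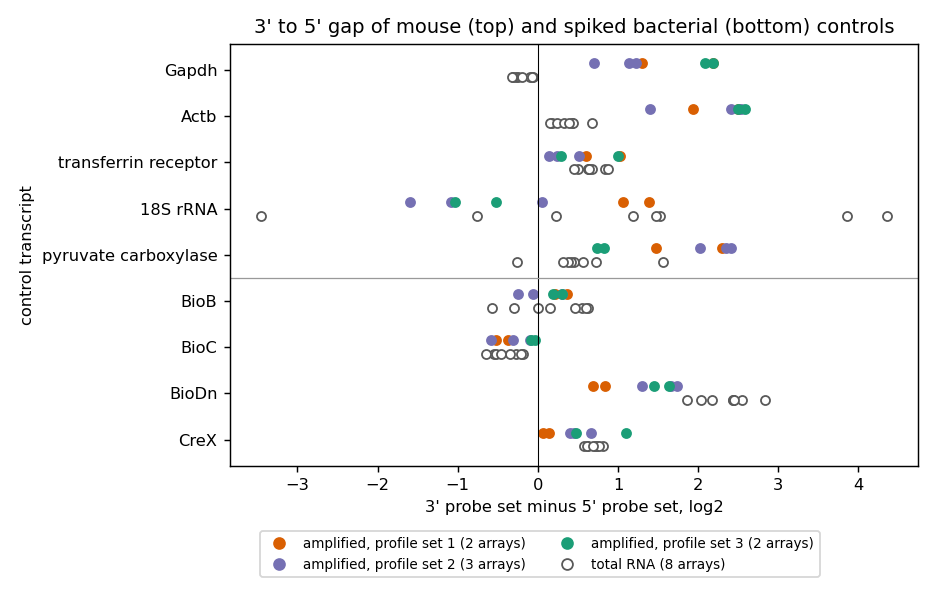
3' minus 5' signal (horizontal, log2) of 5 mouse (above the grey line) and 4 bacterial control transcripts on each amplified array (filled, coloured by array set) and total RNA array (open). Gapdh and Actb are larger on all amplified arrays, up to 2.19 and 2.58, and BioDn is smaller on all of them.

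Gene lists were read through the probe set of each gene that was brightest over all arrays of the series, 8251 genes in all. The amplified arrays entered this choice, so it can favour probe sets that are high in amplified RNA. The balance of higher and lower calls in a list is thus a description. Of the 8251 genes 1581 were called (19.2%), 866 higher (10.5%) and 715 lower (8.67%). The median difference of the 8251 genes was 0.02. Relative directions given below for a list were the same after quantile normalization, with arrays scaled to one median and with values as deposited, unless stated. Few list members were called with values as deposited, at most 1 higher and 3 lower in a list. Many of the largest rises came from _f_at probe sets: Uqcrc2, Cox4i1, Cct6a, Eif4e2, Snrpb2, Slc25a51, Plk1 and Lamb1 below were read by one. Counts called the random-block counts are those with array sets as a random block.

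Mitochondrial ribosomal proteins, which build the ribosome that translates mitochondrial mRNA, had 19 of 61 genes higher and 2 lower, with a median of 0.27. Mrps25 led them, and Mrps33 had signals of 117, 325 and 650 in amplified and 113, 135 and 150.0 in total RNA, a difference of 1.19 ± 0.28. Its ranges overlapped. Mrpl38 differed by -0.89 ± 0.21 and Mrps17 by -0.70 ± 0.15. Without set 2 the list had 18 higher, 10 lower and a median of 0.06, and its random-block counts were 9 higher and 1 lower.

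Subunits of oxidative phosphorylation moved both ways, 14 of 70 higher and 7 lower, with a median of 0.06. Uqcrc2, of respiratory complex III, had signals of 652, 1085 and 1127 in amplified and 347, 386 and 450 in total RNA, a difference of 1.25 ± 0.15. Cox4i1, of cytochrome c oxidase, differed by 1.23 ± 0.15, also without overlap. Atp5l, of ATP synthase, had 226, 464 and 702 against 1153, 1503 and 2139, a difference of -1.86 ± 0.25, while its other probe set differed by 0.46 ± 0.14. Ndufb6, of complex I, differed by -1.48 ± 0.17. The random-block counts were 10 higher and 5 lower. The higher count was 8 without amplified starved 1 and 9 without total starved 3 or total treated 3, and without set 2 there were 15 higher and 17 lower with a median of -0.01.

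Chaperones had 15 of 55 genes higher and 5 lower, with a median of 0.20. Cct6a, of the chaperonin that folds actin and tubulin, had signals of 321, 463 and 591 in amplified and 144, 184 and 260 in total RNA, a difference of 1.14 ± 0.17, and Dnajc13, an endosomal co-chaperone, differed by 1.46 ± 0.26. Dnajb1, a cytosolic Hsp70 partner, differed by -0.98 ± 0.28 and Dnajc9 by -0.76 ± 0.21. In the random block there were 9 higher and 0 lower, so neither of these genes was called there. The count of higher genes was 8 without amplified starved 3. The count of lower genes was 2 or 3 without any one of amplified starved 1, amplified treated 1 or 3, any starved total array, or total treated 3 or 4.

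Genes named as proteasome subunits had 9 of 37 higher and 2 lower, with a median of 0.10. Psmd9 had signals of 262, 415 and 552 in amplified and 133, 150 and 189 in total RNA, a difference of 1.28 ± 0.16, and Psma1 differed by 1.15 ± 0.23. Psmd11, of the regulatory particle, differed by -1.25 ± 0.28. Without set 2 the median was -0.06, with 13 higher and 6 lower, and the random-block counts were 6 higher and 1 lower. The lower count was 1 without any one of amplified starved 1, total starved 1 or 2, or total treated 2.

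Genes of G2 and mitosis had 6 of 23 higher and 1 lower, with a median of 0.34. Mad2l1, of the spindle checkpoint, had signals of 135, 421 and 475 in amplified and 72.7, 145 and 320 in total RNA, a difference of 1.14 ± 0.32. Cdk1, the mitotic kinase, differed by -0.83 ± 0.23. Plk1, given above, led the list at 1.84 ± 0.29 through its _f_at probe set. The random-block counts were 6 higher and 1 lower, and the lower count was 0 without amplified starved 1 or 3.

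Actin and microfilament genes went the other way, 7 of 30 lower and 1 higher, with a median of -0.34. Cfl1, cofilin, which severs actin filaments, had signals of 176, 623 and 1844 in amplified and 2325, 2694 and 2951 in total RNA, a difference of -2.06 ± 0.50. Tmsb10, a thymosin that binds actin monomers, had 234, 1687 and 2088 against 2550, 2971 and 5137, a difference of -1.74 ± 0.51. No amplified array reached the total RNA range for either gene. Arpc2, of the Arp2/3 complex, was the higher one, by 0.45 ± 0.12. Arrays scaled to one median gave 5 higher and 4 lower, and the lower count was 4 without amplified starved 3 and 16 without set 2. The median was -0.56 without set 2 and 0.03 with only the amplified arrays of set 2. In the random block there were 0 higher and 5 lower, and the higher count was 2 or 3 without any one of amplified starved 2, amplified treated 2 or total treated 3.

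Small matrix and matricellular proteins had 5 of 20 lower and 1 higher, with a median of -0.42. Beside Timp2, Ccn2, a matricellular growth factor, had signals of 856, 1574 and 3155 in amplified and 2430, 3596 and 4358 in total RNA, a difference of -0.999 ± 0.19. Mfap5, a microfibril protein, differed by 0.99 ± 0.26. Arrays scaled to one median left 1 lower and 1 higher, and without set 2 there were 10 lower. The median of this list was -0.64 without set 2 and -0.10 with only the amplified arrays of set 2. The random-block counts were 4 lower and 1 higher.

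Collagen chains had 5 of 31 lower and 0 higher. Col1a1, the main chain of type I collagen, had signals of 698, 3215 and 3737 in amplified and 5201, 6179 and 7127 in total RNA, a difference of -1.51 ± 0.38 with no overlap. Col6a2 differed by -1.99 ± 0.51. The median of the list was 0.00, and the random-block counts were 3 lower and 0 higher. The higher count was 1 without any one of amplified starved 2, amplified treated 2 or 3, or total starved 4. Large matrix glycoproteins had 4 of 23 lower and 3 higher, with a median of -0.20. The extremes were Hspg2, the basement membrane proteoglycan perlecan, at -1.57 ± 0.31, and Lamb1, a laminin chain read by an _f_at probe set, at 1.96 ± 0.30. The lower count was 2 without amplified starved 3, and the random-block counts were 3 lower and 3 higher. The fibroblast markers had 4 of 17 lower and 0 higher with a median of -0.27. None was called with arrays scaled to one median, and 3 were lower with the random block. S100a6, a calcium-binding protein, was among them at -0.76 ± 0.16, and so was Col1a1.

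Glycolytic enzymes had 2 of 17 higher and 4 lower, with a median of -0.11. Hk1, hexokinase, had signals of 215, 484 and 1053 in amplified and 990, 2068 and 2485 in total RNA, a difference of -1.91 ± 0.33, and the highest amplified array lay just above the lowest total RNA array. Pkm, pyruvate kinase, differed by -1.33 ± 0.34, Ldhb by 1.22 ± 0.27 and Pgk1 by 0.74 ± 0.21. In the random block there were 1 higher and 3 lower, and the higher count was 1 without any one of total starved 3 or 4 or total treated 2 or 3. Immediate early genes had 2 of 28 higher and 6 lower, with a median of -0.15. Ier3 differed by -1.88 ± 0.29, Zfp36, an mRNA decay factor, by -1.50 ± 0.31 and the transcription factor Klf4 by 0.78 ± 0.20. The lower count was 3 without any one of amplified starved 3, amplified treated 4, total treated 2, total treated 3 or total starved 4. The higher count was 1 without any one of amplified starved 3, amplified treated 1 or 4, total starved 1 or 3, or total treated 1, 2 or 3. The random-block counts were 1 higher and 4 lower.

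Translation factors had 8 of 48 higher and 8 lower, but their random-block counts were 6 higher and 1 lower. Their median stood 0.13 under that of all genes (-0.13), and level with it (0.00158) with arrays scaled to one median. Eif4e2, a cap-binding protein, differed by 1.60 ± 0.26, Eif2s2 by 1.29 ± 0.22, Eif4b by -1.58 ± 0.27 and Eif3l by -1.03 ± 0.34. The higher count was 5 without any one of 9 arrays (amplified starved 1 and 3, amplified treated 1 and 4, total starved 2, 3 and 4, total treated 3 and 4), and the lower count was 4 without amplified starved 1. Splicing factors had 8 of 42 higher and 5 lower (4 and 5 with the random block), with a median relative to all genes of -0.02, which was 0.20 with arrays scaled to one median and 0.03 as deposited. Snrpb2 differed by 1.46 ± 0.30, Sf3b1 by 1.21 ± 0.25, Hnrnpl by -1.98 ± 0.30 and Snrpc by -1.76 ± 0.32. Without set 2 there were 19 higher and 9 lower splicing factors, with a median difference of 0.44. With only the amplified arrays of set 2 that median was -0.16. Cytosolic ribosomal proteins had 2 of 34 higher and 3 lower, and their median relative to all genes was -0.01, against 0.12 with arrays scaled to one median and -0.08 as deposited. Rps19 differed by 1.15 ± 0.23 and Rps7 by -1.13 ± 0.25, both without overlap. The counts were 4 higher and 7 lower without amplified starved 2, 4 and 8 without set 2, and 1 and 2 with the random block.

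Solute carriers had 14 of 142 higher and 12 lower, led by Slc25a51 at 1.64 ± 0.30 and Slc7a5, an amino acid transporter, at -1.31 ± 0.32. In the random block there were 5 higher and 3 lower, and the lower count was 7 without amplified starved 3. Zinc finger genes named Zfp had 8 of 89 higher and 9 lower, led by Zfp821 at 1.06 ± 0.10 and Zfp385a at -1.66 ± 0.41. The random-block counts were 3 higher and 6 lower. The higher count was 5 without amplified starved 1 and 14 without amplified starved 2 or amplified treated 3. Hox genes, which pattern the body axis, had 1 of 31 higher (Hoxa10, 0.91 ± 0.16) and 3 lower (Hoxb6 the largest, -1.26 ± 0.20), with 1 higher and 2 lower in the random block and 2 higher without amplified treated 2 or 3. Tubulins had 1 of 12 higher (Tuba1a, 0.48 ± 0.13) and 2 lower (Tubb2a, -0.73 ± 0.17, and Tuba8, -0.61 ± 0.13), with 0 higher and 1 lower in the random block and 0 higher without amplified starved 1. The tubulin median of -0.19 was -0.63 without set 2 (1 higher, 7 lower) and 0.28 with only the amplified arrays of set 2. Of the marker lists of other cells, neural markers had 2 of 13 higher (Gap43 and Mbp) and skeletal muscle markers 1 of 16 (Myh3), and none of 10 endothelial, 13 epithelial and 8 erythroid markers was called. The neural and muscle calls were lost with the random block (0 called in both lists). They also moved by 1 or 2 genes without single arrays, and 1 endothelial and 1 epithelial marker were called without amplified treated 1, and 1 epithelial marker without total treated 2.

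**Figure D5:**
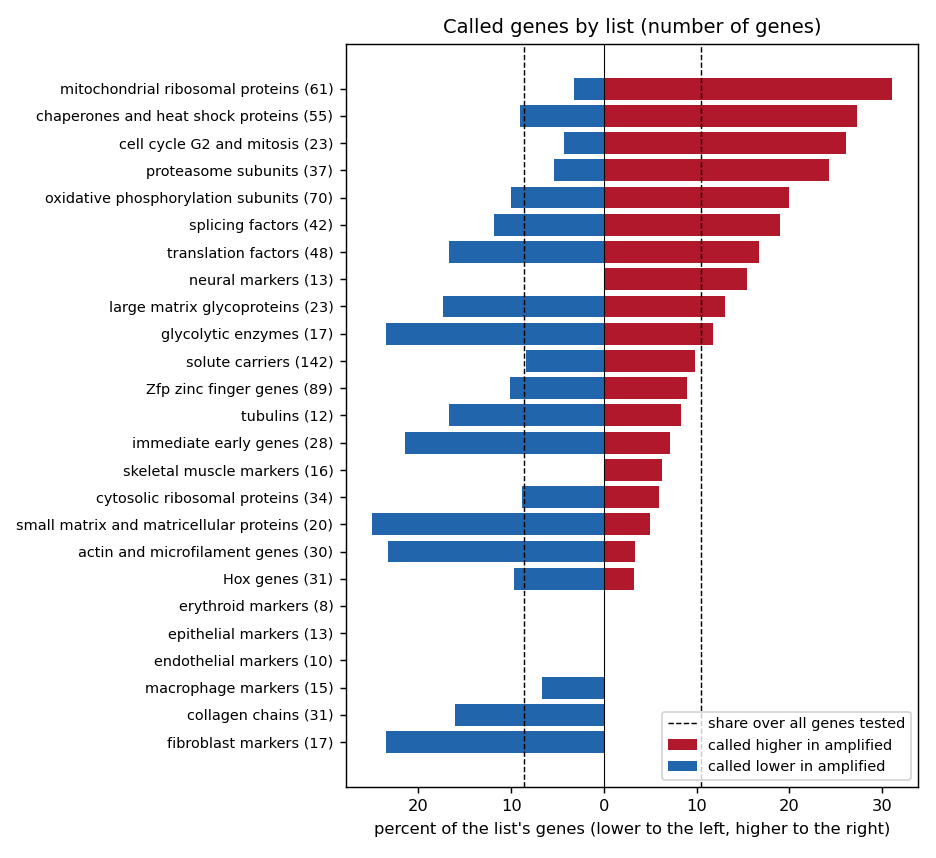
Percent of each list's genes called higher (red, to the right) and lower (blue, to the left) in amplified RNA, with the number of genes in brackets; dashed lines give the shares over all 8251 genes (10.5% and 8.67%). Mitochondrial ribosomal proteins reach 31.1% higher, and small matrix proteins 25.0% lower.

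The difference between the kinds of RNA was found in both serum conditions. In starved cells 764 probe sets were called (6.15%), 393 higher (3.16%) and 371 lower (2.99%), and in treated cells 733 (5.9%), 391 higher (3.15%) and 342 lower (2.75%). These comparisons share no arrays. Their differences correlated with r = 0.869 over 12422 probe sets. This is a description, since probe sets depend on each other and the array sets span both conditions. Higher in both were 256 probe sets, 65.1% of the starved and 65.5% of the treated calls, and lower in both were another 256 (69.0% and 74.9%). None was called in opposite directions. Leaving out single arrays moved these counts: the starved count was 365, 1225 and 423 without amplified starved 1, 2 and 3, and 509, 413 and 416 without total starved 2, 3 and 4. The treated count was 483, 400.0 and 467 without total treated 2, 3 and 4. Arrays of the other condition mattered too: the starved count was 1036 without amplified treated 1 and 606 without total treated 2.

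No probe set was called for a difference between the serum conditions in the gap between the kinds of RNA. By limma with Benjamini-Hochberg adjustment 0 of 12422 were called (0%), 141 had an unadjusted p below 0.05, and the random block gave 0 called and 509. The median SE of this difference was 0.395, and differences well above that size also went uncalled. Treated minus starved, the gap differed by 0.73 (SE 0.4) for Hoxb6 and by -0.77 (SE 0.93) for Gnb5. The smallest difference that this comparison could call was not tested. Timp2 differed by -3.48 in starved and -3.07 in treated cells, and Gnb5 by 2.87 and 2.10. Of the pairs of one gene, 0 were called for a difference between serum conditions and 38 had an unadjusted p below 0.05 (limma). The counts with an unadjusted p below 0.05, for pairs and for all probe sets, were below the number that chance alone gives. The test was thus conservative, and its 0 calls do not show that the gap was equal in both conditions.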

How the data were processed

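The deposited values are the authors' signal intensities on a linear scale, 1 per probe set and array (12488 probe sets, of which 66 were controls). The highest is 11017 and 42 are 0. The scanner software, summary method and scaling of these intensities are not given in the sources used here. Per the labels' protocols, RNA was extracted on columns, reverse transcribed, linearly amplified and biotin-labelled with T7 polymerase, and arrays have no read depth: their number limits the precision.

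All 23 arrays were quantile normalized together, and 16 was added before log2, which understates changes of dim probe sets. The 15 arrays were fitted as 4 groups (limma 3.58.1, R 4.3.3), averaging both serum conditions, and called at a Benjamini-Hochberg adjusted p below 0.05. Control gaps were tested by exact permutation of single arrays within serum condition, without regard to array sets, adjusted over 9 transcripts. The fit was tested on simulated data.

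The authors' probe sets were named through GEO's platform annotation, with symbols checked against RefSeq: 10833 had 1 gene symbol, 396 several and 1193 were not listed. A gene was read in the lists by its brightest probe set over all 23 arrays. No pair of arrays held identical values.

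The members, the lists and the tests were chosen with earlier results of these data known. Named genes were the 12 largest rises and the 12 largest falls among called, non-overlapping genes with 1 symbol, up to 2 called members per list and direction, and the 10 genes with the largest called, non-overlapping pair. The chaperone list was corrected after its values were seen, since its name pattern had taken Hspg2. Histone genes were also listed, but 0 were measured. The random block of array sets, the fits without each array set and the counts by name suffix were added after the data were seen. Deviations of amplified and total RNA arrays of one number correlated weakly, by -0.05 to 0.31 and above 0.1 in 9 of 14 pairs. The main fit did not pair them. With the replicate number as a block 1622 probe sets were higher and 1459 lower. Within total RNA, starved and treated arrays of one number did deviate together (0.23 to 0.7), and the random block takes these as sets. A comparison by protein length was not run.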

Additional observations from a re-analysis of the deposited data

Results flagged for a closer look

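Of 204 tests for a lone array within a group of 4, 12 set one apart by Dixon's criterion, and chance gives about 1 in 20. The 3' minus 5' gap of Actb was 1.4 in amplified treated 2 and 2.41 to 2.58 in the other amplified treated arrays. In the same array the BioB gap was -0.253 against 0.212 to 0.304, and the log2 level of Psap was 5.18 against 4.1 to 4.28.

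In amplified treated 4 the pyruvate carboxylase gap was 0.828 against 2.3 to 2.41, and the median log2 level of the fibroblast markers was 9.48 against 10.9 to 11.2. Total treated 1 stood apart in 4 values. Its pyruvate carboxylase gap was 1.56 against 0.38 to 0.57, and its macrophage marker median was 7.24 against 9.27 to 9.42. Its log2 level of Timp2 was 9.4 against 11.4 to 11.5, and that of Shc1 was 6.86 against 8.15 to 8.38.

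In total starved 3 the log2 level of Nfix was 11.2 against 10.6 in the others, and the median of the large matrix glycoproteins was 8.04 against 8.25 to 8.26. In total starved 4 the log2 level of Rab7 was 10.3 against 9.45 to 9.56.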

How the results depend on the processing

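Each result was recomputed under up to 29 alternatives. With values as deposited 13 probe sets were higher and 251 lower, with 0 called in starved and 20 in treated cells (limma), and the amplified median SD was 0.797. Without array set 2 there were 2339 higher and 2128 lower, 2804 called in starved and 2867 in treated cells. The random block gave 705 higher and 669 lower. A pseudocount of 1 gave 471 called in starved and 477 in treated cells. With the replicate number as a block 1363 were called in starved and 1239 in treated cells. Starved and treated total RNA arrays of one number deviated together (r = 0.7, 0.23, 0.47 and 0.57), as did amplified numbers 1 and 2 (0.69 and 0.76) but not 3 (-0.47). Amplified and total RNA arrays of one number correlated by -0.05 to 0.31. Array weights gave 1121 in treated cells, and leaving out 4 amplified arrays (starved 1 and 3, treated 1 and 4) gave 1544. Leaving out single arrays gave 365 to 1225 called in starved cells and 400 to 815 in treated cells. Of the pairs with both mean signals at least 50, 475 of 880 were called.

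The Gapdh gap differed by 1.28 to 2.14, the Actb gap by 1.82 to 2.13 and the BioDn gap by -1.19 to -0.753 over the alternatives. Pyruvate carboxylase gave 0.816 without set 2. The transferrin receptor gap differed by 0.098 with a pseudocount of 1, -0.375 without the 4 arrays (adjusted p = 0.04, exact permutation test) and 0.0775 without set 2. BioB gave 0.00398 as deposited, 0.0139 with arrays scaled to one median, 0.0793 without set 2 and -0.154 to 0.0316 without single arrays. CreX gave -0.344 as deposited and with arrays scaled to one median, -0.198 without the 4 arrays and -0.354 without set 3, each then passing the exact permutation test (adjusted p from 0.00092 to 0.024), and -0.324 to -0.153 without single arrays. The cause of these shifts was not tested. The scale of the deposited values and what the amplified array sets share are unknown.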

Other observations

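Some control levels belong in no comparison above. The 5' probe set of 18S rRNA had normalized signals of 2.52, 449 and 1793 (lowest, median, highest) in amplified and 1.29, 5.04 and 3834 in total RNA. Its 3' probe set had 22.5, 210 and 840 in amplified and 11.8, 52.1 and 410 in total RNA, so the ranges overlapped at both ends of this ribosomal RNA, which has no poly(A) tail. The spiked BioB transcript had 3' signals of 91.5, 186 and 1247 on amplified and 58.4, 100.0 and 170 on total RNA arrays, and BioC had 215, 401 and 1827 against 197, 245 and 356.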
